A study of Mus musculus with 24 samples.

Results

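Macrophage genes were followed across 4 diets in mouse IWAT, inguinal white adipose tissue, a subcutaneous fat depot. The 30 genes were picked by symbol out of the 16821 genes of the deposited table, all 30 were found there, and all 30 passed the filter on low counts that left 15176 genes for testing. They comprise 9 general macrophage genes, 4 Fc receptors and their adaptors, 5 monocyte and recruitment genes, 6 markers of resident macrophages and 6 genes of lipid-associated macrophages, Itgax (CD11c) among these. The series asked how methionine restriction (MR) acts on this fat pad when the diet is built on oxidized casein, beside MR built on elemental amino acids. Male C57BL6/J mice were put on a diet when 5 weeks old, ate it for 12 weeks and were 4 months old, fasted for 4 h, when tissue was taken. Of the 8 mice fed each diet, 6 were sequenced, each as its own library.

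The elemental control diet held elemental amino acids with 0.86% methionine and the elemental MR diet held elemental amino acids with 0.17% methionine. The casein control diet held casein as protein, with 0.86% methionine. In the oxidized casein MR diet the casein had lost methionine through oxidation, and methionine was returned to 0.17%. In the casein pair the effect of oxidized protein and that of low methionine cannot be told apart. The labels name no transgene or drug, and all groups share sex, strain and age. The text on the series' design speaks of the liver, whereas its title, the sample source and the extraction protocol name IWAT.

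Adipose tissue macrophages clear dying adipocytes, take up the lipid these release and regulate tissue remodelling. Resident macrophages that carry the mannose receptor (Mrc1), the haemoglobin scavenger receptor Cd163, the folate receptor Folr2 or the hyaluronan receptor Lyve1 lie along vessels and between fat cells of lean tissue. In obesity, CCR2-bearing monocytes enter from blood and give rise to macrophages around dying adipocytes, which carry CD11c and the lipid receptor TREM2 with CD9, GPNMB and galectin-3. Macrophages depend on CSF1 or IL-34 acting through the receptor CSF1R and on the transcription factor PU.1.

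Promoter sequences are shown for 3 members on which the results below turn: Cd68, the general marker with the strongest evidence of a lower level with MR; Mrc1, the mannose receptor of resident macrophages; and Timd4, whose level differed most between libraries with and without lymph node transcripts. Each sequence is RefSeq's on GRCm38.p6, from 250 bases before to 50 bases after the annotated start, written 5′ to 3′ on the gene's own strand. Capitals mark GAGGAA or its reverse complement TTCCTC, the core letters of the PU box to which PU.1 binds.
Cd68 (chr11:69666121-69666420, minus strand): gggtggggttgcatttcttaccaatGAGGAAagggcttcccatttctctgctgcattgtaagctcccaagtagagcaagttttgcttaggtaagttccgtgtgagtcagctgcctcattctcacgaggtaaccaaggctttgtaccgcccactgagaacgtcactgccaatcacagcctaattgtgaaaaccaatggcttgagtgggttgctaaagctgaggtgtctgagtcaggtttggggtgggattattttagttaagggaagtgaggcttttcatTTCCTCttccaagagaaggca
Mrc1 (chr2:14229164-14229463, plus strand): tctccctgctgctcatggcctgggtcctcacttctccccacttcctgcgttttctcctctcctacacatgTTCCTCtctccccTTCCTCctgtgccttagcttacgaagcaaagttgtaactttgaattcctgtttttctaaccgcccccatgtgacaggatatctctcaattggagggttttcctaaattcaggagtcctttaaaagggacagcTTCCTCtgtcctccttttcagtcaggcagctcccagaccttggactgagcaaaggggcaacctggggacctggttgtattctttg
Timd4 (chr11:46810549-46810848, plus strand): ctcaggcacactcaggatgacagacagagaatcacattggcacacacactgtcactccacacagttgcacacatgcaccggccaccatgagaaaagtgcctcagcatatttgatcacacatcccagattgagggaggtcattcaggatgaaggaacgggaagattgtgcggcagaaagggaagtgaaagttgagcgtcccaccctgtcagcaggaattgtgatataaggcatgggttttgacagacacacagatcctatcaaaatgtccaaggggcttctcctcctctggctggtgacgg
The letters occur 2 times in the Cd68 window, 3 times in that of Mrc1 and 0 times in that of Timd4. They also occur 0 times in the window of Fcer1g, not printed here, the other member past the threshold in the results below. RefSeq gave 27 promoters for 23 of the 30 members, and 12 of the 27 (44.4%), from 11 genes, held GAGGAA on either strand. The share was 28.3% of all 32851 promoters of the same length. A match is a run of letters and not a shown binding site.

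Levels are given in CPM, reads relative to the library total scaled by TMM (trimmed mean of M values), and library totals ran from 7468336 to 19868913 reads. Adipose identity was clear, as Adipoq (adiponectin) was at 1591 to 5208 CPM in every library. The libraries fell apart in their content of lymph node, which is embedded in this pad. The mean log2 CPM of 11 B cell markers ran from 4.84 to 6.51 in 15 libraries, while 9 libraries lay at -0.599 to 2.72. Those above 4 are called libraries with lymph node transcripts. Among the 6 mice of each diet these were 4 with elemental control, 5 with elemental MR, 4 with casein control and 2 with oxidized casein MR. The casein pair is therefore unbalanced in lymph node content, and the median log2 fold change of the 11 B cell markers was -1.18 in that comparison against 0.20 on elemental amino acids, with 0 of 11 past the threshold in each. Marco, a scavenger receptor of lymph node sinus macrophages, was at 43.4 to 119 CPM in the 15 libraries and at 0.762 to 3.83 CPM in the 9. Csf1r, Ctss, Cx3cr1 and Cd9 overlap another gene of the table. Ctss and Cx3cr1 do so on the same strand, where strand cannot tell the reads apart. Csf1r, Cd9 and also Cx3cr1 overlap a gene on the opposite strand. The sources used here do not say whether strand was used in counting, so those reads may not be told apart either. In elemental control mouse 2 and elemental MR mouse 2, both without lymph node transcripts, the skeletal muscle actin Acta1 was at 2946 and 1239 CPM.

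Most macrophage genes were lower with MR on either protein source, by amounts that for nearly all single genes did not pass the test. On elemental amino acids 25 of 30 members were lower and 5 higher, with a median log2 fold change of -0.38 (range -1.57 to 0.31). On casein 28 were lower and 2 higher, with a median of -0.46 (range -1.44 to 0.05). Over all 15176 genes the medians were -0.02 and -0.06, with 53.9% and 58.1% of genes lower. A lower level in whole tissue can come from fewer macrophages or from less of the RNA in each macrophage, and the 2 cannot be told apart in bulk libraries.

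By edgeR's quasi-likelihood test, with adjusted p-values over all genes and a threshold of 0.05, 0 of 30 members passed on elemental amino acids, where 0.244% of all genes passed (0.0264% as lower). At an unadjusted p under 0.05, 6 members were lower and 0 higher in that comparison, against 5.08% of all genes that were lower at this level. DESeq2 also called 0 members there. On casein 1 of 30 passed, Cd68, against 3.82% of all genes (0.461% as lower), and 4 were lower at an unadjusted p under 0.05, against 6.4% of all genes. In the average of the 2 MR effects, which uses all 24 mice, 29 of 30 members were lower, against 61.9% of all genes. In this average 2 fell past the threshold, Cd68 and Fcer1g, against 6.99% of all genes (1.76% as lower). There 10 members were lower at an unadjusted p under 0.05, against 8.74% of all genes. The median of the 30 was -0.46 in the average, beside -0.07 over all genes. The effects of MR on the 2 protein sources were not shown to differ for any member: 0 of 30 passed the test of the difference, against 0% of all genes, DESeq2 called 0, and 0 of 30 had an unadjusted p under 0.05, against 3.33% of all genes.

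**Figure D1:**
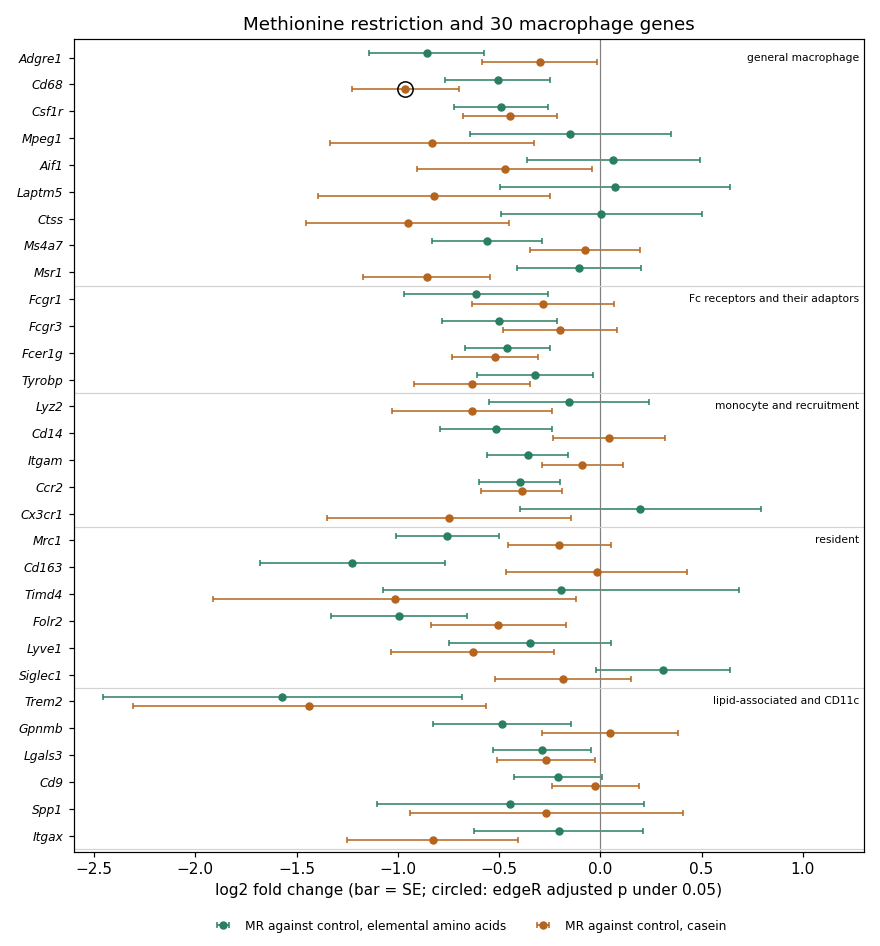
Log2 fold change of MR against control for the 30 genes (x axis), by class, on elemental amino acids (green) and on casein (orange), n = 6 mice a diet. Bars are the SE of edgeR's estimate, and the circle marks the single value past adjusted p 0.05, Cd68 on casein at -0.96; most points lie left of 0.

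Cd68 encodes macrosialin, a lysosomal glycoprotein abundant in phagocytes. It was at 23.35 to 47.2 CPM with a median of 34.0 in casein controls and 12.0 to 26.3 CPM with a median of 15.4 in oxidized casein MR mice. On elemental amino acids it was at 18.0 to 38.95 CPM with a median of 26.9 in controls and 8.30 to 31.4 CPM with a median of 19.0 with MR. The ranges overlapped in each pair, although 4 of the 6 oxidized casein MR mice and 3 of the 6 elemental MR mice lay below every control of their pair. Cd68 fell by 0.96 ± 0.26 (SE, n = 6 a diet, adjusted p = 0.0367) on the log2 scale on casein, 1.95-fold lower. In the average of the 2 MR effects it fell by 0.73 ± 0.18 (SE, adjusted p = 0.0141), 1.66-fold lower, and on elemental amino acids the value was -0.51 ± 0.26 (SE, adjusted p = 0.531).

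The call in the average remained when each of the 24 libraries was left out in turn (adjusted p 0.00297 to 0.0304). It did not remain within the 15 libraries with lymph node transcripts (-0.38, adjusted p = 0.188). Within the 9 without, where elemental MR was 1 mouse, the value was -1.50, and only its size is given. Each set held fewer mice than the whole. The call on casein ended on leaving out any of 7 libraries, casein control mice 1, 5 and 6 and oxidized casein MR mice 1, 2, 4 and 6, with log2 fold changes of -0.98 to -0.85 and adjusted p of 0.052 to 0.1. Cd68 itself was higher where lymph node was present, with a median of 26.9 CPM against 18.0 CPM. With lymph node presence as a term of the model, the casein value was -0.88 (adjusted p = 0.0292).

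Adgre1 encodes F4/80, the standard surface marker of mouse macrophages. It was at 8.63 to 21.1 CPM with a median of 10.5 in elemental controls and 5.00 to 10.2 CPM with a median of 6.16 with elemental MR, and 5 of the 6 MR mice lay below every control. On casein the ranges of 4.20 to 18.5 CPM with a median of 8.68 and 6.21 to 10.4 CPM with a median of 8.44 overlapped throughout, the MR mice lying inside the wide range of the controls. The log2 fold changes were -0.86 ± 0.28 (SE, adjusted p = 0.245) on elemental amino acids, -0.30 ± 0.28 (SE, adjusted p = 0.636) on casein and -0.58 ± 0.20 (SE, adjusted p = 0.0882) in the average. Within the libraries with lymph node transcripts the casein value was 0.29 and within those without it was -0.97, neither past the threshold. Within the libraries without, the average was -1.10, where elemental MR was 1 mouse, mouse 2, rich in muscle transcripts. With each of all 24 libraries left out in turn, the average passed without elemental MR mouse 3 (adjusted p = 0.0371) or casein control mouse 3 (adjusted p = 0.0285).

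Csf1r, the receptor for the survival factors CSF1 and IL-34, was at 139.7 ± 33.8 CPM (SD, n = 6) in elemental controls and 99.5 ± 42.2 CPM with MR, and at 157 ± 27.1 CPM in casein controls and 115 ± 27.3 CPM with oxidized casein MR. Its log2 fold changes were close to each other, -0.49 and -0.44, and -0.47 ± 0.16 (SE, adjusted p = 0.0935) in the average. The scavenger receptor Msr1 was at -0.86 ± 0.31 (SE, adjusted p = 0.145) on casein and -0.10 on elemental amino acids, and Ms4a7 was at -0.08 and -0.56. The 4 remaining general genes were near 0 on elemental amino acids and lower on casein, a difference that did not pass for any of them. Mpeg1 (perforin-2), Aif1 (IBA1), Laptm5 and the protease gene Ctss had log2 fold changes between -0.15 and 0.07 on elemental amino acids and between -0.95 and -0.47 on casein. Mpeg1, Laptm5 and Ctss are also expressed by B cells, and all 4 genes were among the genes that followed lymph node content, described further below. The median of the 9 general genes was -0.15 on elemental amino acids and -0.82 on casein, and with lymph node presence in the model these became -0.34 and -0.39. In that model Aif1, Laptm5 and Ctss, all just above 0 on elemental amino acids, turned to -0.165, -0.28 and -0.32.

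Fcer1g encodes the common γ chain through which Fc receptors signal. It was at 29.0 to 69.35 CPM with a median of 50.4 in elemental controls and 20.75 to 56.6 CPM with a median of 37.1 with MR. On casein it was at 41.2 to 67.8 CPM with a median of 57.4 in controls and 29.7 to 52.8 CPM with a median of 36.1 with MR. The groups overlapped on each protein source, with the MR medians below the control medians. Fcer1g fell by 0.49 ± 0.15 (SE, adjusted p = 0.0475) in the average, 1.40-fold lower, from -0.46 on elemental amino acids and -0.52 on casein. This call lay at the threshold: it ended on leaving out any of 17 of the 24 libraries (adjusted p 0.0518 to 0.0933) and held without elemental control mouse 1 or 2, elemental MR mouse 3, casein control mouse 2 or 3, or oxidized casein MR mouse 3 or 5. Under limma voom its adjusted p was 0.0502.

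The other 3 genes of this class did not pass in any of the 6 comparisons over all libraries. In the average, Fcgr3 was at -0.95 among only the libraries without lymph node transcripts, where elemental MR was 1 mouse. Fcgr1 passed in the average when elemental MR mouse 3 was left out (-0.70, adjusted p = 0.0452). Tyrobp encodes DAP12, the adaptor of TREM2 and other receptors. It was at 26.0 to 46.0 CPM with a median of 39.3 in casein controls and 14.1 to 35.1 CPM with a median of 20.9 with oxidized casein MR, against 15.99 to 39.2 CPM with a median of 35.8 and 8.91 to 41.3 CPM with a median of 24.6 on elemental amino acids. Mice of each diet overlapped, and the log2 fold change was -0.63 ± 0.29 (SE, adjusted p = 0.274) on casein and -0.32 on elemental amino acids. Fcgr1, the high-affinity IgG receptor CD64, was at 1.24 to 2.69 CPM with a median of 2.64 in elemental controls and 0.7295 to 3.69 CPM with a median of 1.19 with MR. In casein controls and oxidized casein MR mice Fcgr1 was at 1.15 to 4.07 CPM with a median of 3.34 and 1.67 to 3.55 CPM with a median of 2.29. Again the groups overlapped, with fold changes of -0.61 ± 0.35 (SE, adjusted p = 0.595) and -0.28 on the log2 scale, and the low-affinity receptor Fcgr3 was at -0.50 and -0.20. All 4 genes of the class were lower on each protein source, with class medians of -0.48 and -0.40.

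**Figure D2:**
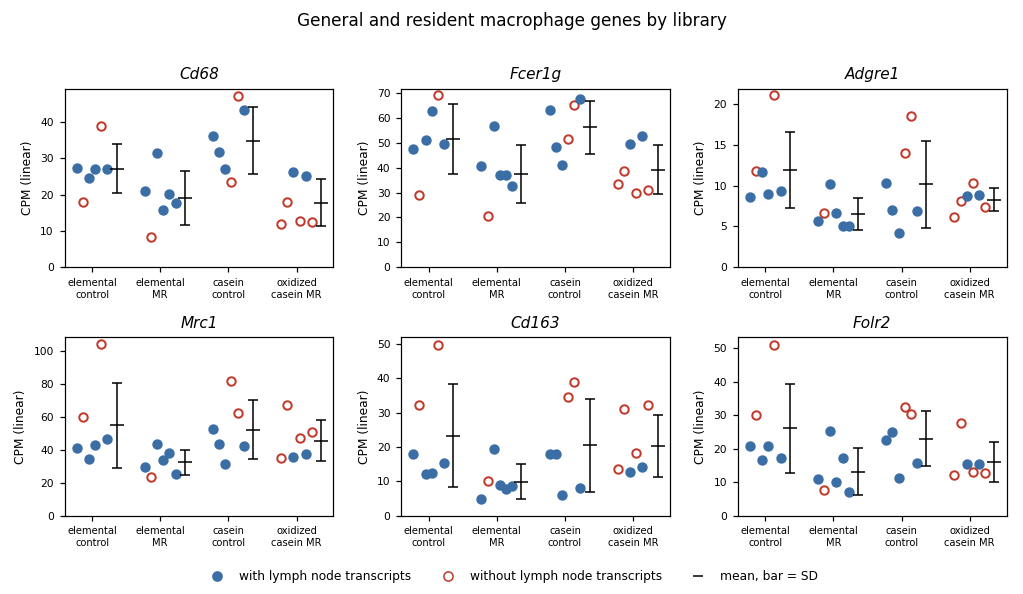
CPM of Cd68, Fcer1g, Adgre1, Mrc1, Cd163 and Folr2 in each of the 24 libraries by diet (linear y axis from 0), with filled points for libraries with and open points for those without lymph node transcripts, and bars for mean ± SD of 6 mice. The groups overlap in every panel, and the open points of Mrc1, Cd163 and Folr2 in the controls lie above the filled ones.

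Among the monocyte and recruitment genes, Ccr2, the chemokine receptor with which monocytes leave the bone marrow, was at 25.4 ± 10.0 CPM (SD, n = 6) in elemental controls against 19.2 ± 3.84 CPM with MR, and at 32.3 ± 8.41 CPM in casein controls against 24.7 ± 4.09 CPM with MR. Its log2 fold change was the same size on each protein source, -0.40 and -0.39, and -0.39 ± 0.14 (SE, adjusted p = 0.104) in the average. Itgam (CD11b) was at -0.36 and -0.09, and the lysozyme gene Lyz2 at -0.15 and -0.63, in the same order. Cd14, the lipopolysaccharide co-receptor, was at 3.65 to 9.79 CPM with a median of 5.34 in elemental controls and 2.59 to 5.585 CPM with a median of 4.44 with MR. On casein its ranges were 2.85 to 7.88 CPM with a median of 4.79 and 3.855 to 6.51 CPM with a median of 5.405, so that its log2 fold change was -0.51 ± 0.28 (SE, adjusted p = 0.558) on elemental amino acids and 0.04 on casein, where the sign turned to -0.09 with lymph node presence in the model. Cx3cr1, the fractalkine receptor, was at 2.94 to 20.2 CPM with a median of 12.2 in casein controls and 1.55 to 18.1 CPM with a median of 3.39 with MR. On elemental amino acids it was at 2.08 to 13.1 CPM with a median of 11.3 and 3.03 to 13.4 CPM with a median of 11.3. The spread within each diet, up to about the size of the mean, went with lymph node content, and the fold changes of -0.75 ± 0.60 (SE, adjusted p = 0.580) and 0.20 did not pass. In all, 4 of the 5 genes were lower on each protein source, with medians of -0.36 and -0.39.

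Of the 6 resident markers, 5 were lower with elemental MR and 6 with oxidized casein MR, with medians of -0.55 and -0.35 and 0 past the threshold. Mrc1, the mannose receptor CD206 whose promoter is printed above, was at 34.2 to 104 CPM with a median of 44.7 in elemental controls and 23.7 to 43.5 CPM with a median of 31.8 with MR, and 4 of 6 MR mice lay below every control. On casein it was at 31.5 to 81.8 CPM with a median of 48.1 and 35.1 to 67.25 CPM with a median of 42.0, and 0 of 6 MR mice lay below every control. The log2 fold changes were -0.76 ± 0.25 (SE, adjusted p = 0.259) and -0.20 ± 0.25 (SE, adjusted p = 0.731). Cd163, the haemoglobin-haptoglobin scavenger receptor, differed most between the protein sources. It was at 12.0 to 49.7 CPM with a median of 16.7 in elemental controls against 5.005 to 19.5 CPM with a median of 8.68 with MR, 2.34-fold lower, and at 6.005 to 38.85 CPM with a median of 17.8 in casein controls against 12.75 to 32.1 CPM with a median of 16.2 with MR. Its log2 fold changes of -1.22 ± 0.46 (SE, adjusted p = 0.311) and -0.02 differed by 1.21 ± 0.64 (SE, unadjusted p = 0.0707, adjusted p = 0.91), so the difference did not pass. With lymph node presence in the model the values were -0.82 and -0.25.

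Folr2, folate receptor β of perivascular resident macrophages, was at 26.0 ± 13.2 CPM (SD, n = 6) in elemental controls and 13.1 ± 7.0 CPM with MR, and at 22.9 ± 8.19 CPM and 16.1 ± 5.88 CPM on casein. The log2 fold change was -0.75 ± 0.24 (SE, adjusted p = 0.0586) in the average, from -0.99 and -0.50, and DESeq2 and the model with a lymph node term placed the average past the threshold. Lyve1, a hyaluronan receptor of vessel-associated macrophages and of lymphatic endothelium, was at 48.4 to 100.7 CPM with a median of 85.1 in elemental controls and 14.9 to 88.9 CPM with a median of 68.3 with MR. On casein Lyve1 was at 57.0 to 154 CPM with a median of 104 in controls and 15.7 to 133 CPM with a median of 54.0 with MR. The fold changes of -0.35 ± 0.40 (SE, adjusted p = 0.895) and -0.63 ± 0.40 (SE, adjusted p = 0.468) were within the spread of the mice. Prox1, a transcription factor of lymphatic endothelium, was at 6.94 to 20.2 CPM in libraries with and 0.827 to 3.97 CPM in libraries without lymph node transcripts, and the part of lymphatic vessels in the Lyve1 values was not tested. Siglec1 (CD169), the sialic acid receptor of resident and lymph node sinus macrophages, was higher with elemental MR at 0.31 and at -0.18 with oxidized casein MR, neither past the threshold. The casein value turned to 0.12 with lymph node presence in the model.

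Timd4 encodes TIM-4, a phosphatidylserine receptor with which resident macrophages of several tissues, lymph nodes among them, bind dying cells. It was at 2.79 to 40.5 CPM with a median of 31.4 in elemental controls, 1.47 to 34.6 CPM with a median of 24.5 with elemental MR, 1.53 to 48.3 CPM with a median of 30.4 in casein controls and 1.92 to 36.7 CPM with a median of 3.03 with oxidized casein MR. Within every diet the values fell into a high and a low set with none between. The high set was the libraries with lymph node transcripts, at 16.4 to 48.3 CPM, and the low set the 9 without, at 1.47 to 4.12 CPM. The log2 fold change with MR was -0.19 ± 0.88 (SE, adjusted p = 1) on elemental amino acids and -1.02 ± 0.90 (SE, adjusted p = 0.616) on casein, and with lymph node presence in the model -0.58 (adjusted p = 0.16) and -0.08 (adjusted p = 0.908).

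The lipid-associated genes held the largest fold change of the 30 genes on each protein source, that of Trem2, and it rested on few reads. Trem2, the lipid-sensing receptor of this state, was at 0.168 to 2.945 CPM with a median of 0.719 in elemental controls and 0 to 1.125 CPM with a median of 0.202 with MR, and at 0.1095 to 4.26 CPM with a median of 0.659 in casein controls and 0.0667 to 1.24 CPM with a median of 0.328 with MR. These are 0 to 67 reads a library and 231 reads in all. Elemental MR mice 4 and 6 had 0 reads, which allows up to 0.215 and 0.313 CPM (3 reads, counting error only). The highest values, 4.26 CPM in casein control mouse 5 and 2.945 CPM in elemental control mouse 5, were both in controls, and the other 22 libraries lay at or below 1.24 CPM. The log2 fold changes of -1.57 ± 0.89 (SE, adjusted p = 0.586), -1.44 ± 0.87 (SE, adjusted p = 0.436) and -1.50 ± 0.62 (SE, adjusted p = 0.169) in the average carry, with those of Timd4, the widest errors of the 30 genes. The casein value was -0.355 without casein control mouse 5, -2.08 without oxidized casein MR mouse 6 and between these for every other library left out in turn. On elemental amino acids the same range was -2.3 to -0.84.

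Itgax, the CD11c integrin of lipid-associated macrophages and of dendritic cells, was at 2.23 to 6.815 CPM with a median of 5.36 in elemental controls and 1.90 to 6.46 CPM with a median of 4.13 with MR, and at 2.07 to 12.3 CPM with a median of 5.69 and 1.40 to 7.20 CPM with a median of 2.75 on casein. The ranges overlapped, and the fold changes were -0.21 ± 0.42 (SE, adjusted p = 0.982) and -0.83 ± 0.42 (SE, adjusted p = 0.339) on the log2 scale. Gpnmb, a lysosomal glycoprotein, was at 18.9 ± 10.8 CPM (SD, n = 6) and 13.55 ± 3.87 CPM on elemental amino acids and at 22.6 ± 12.2 CPM and 23.4 ± 7.48 CPM on casein, control first in each pair. Its log2 fold changes were -0.48 and 0.05, the latter -0.18 with lymph node presence in the model. Lgals3, which encodes galectin-3, was at -0.29 and -0.27, and the tetraspanin gene Cd9 at -0.21 and -0.02. Spp1, osteopontin, was at -0.44 and -0.27 from 1 to 90 reads a library. All 6 genes of the class were lower in the average, though Gpnmb (0.03) and Cd9 (0.07) were not when only lymph node libraries were fitted; 0 passed, and the class medians were -0.37 on elemental amino acids and -0.27 on casein.

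**Figure D3:**
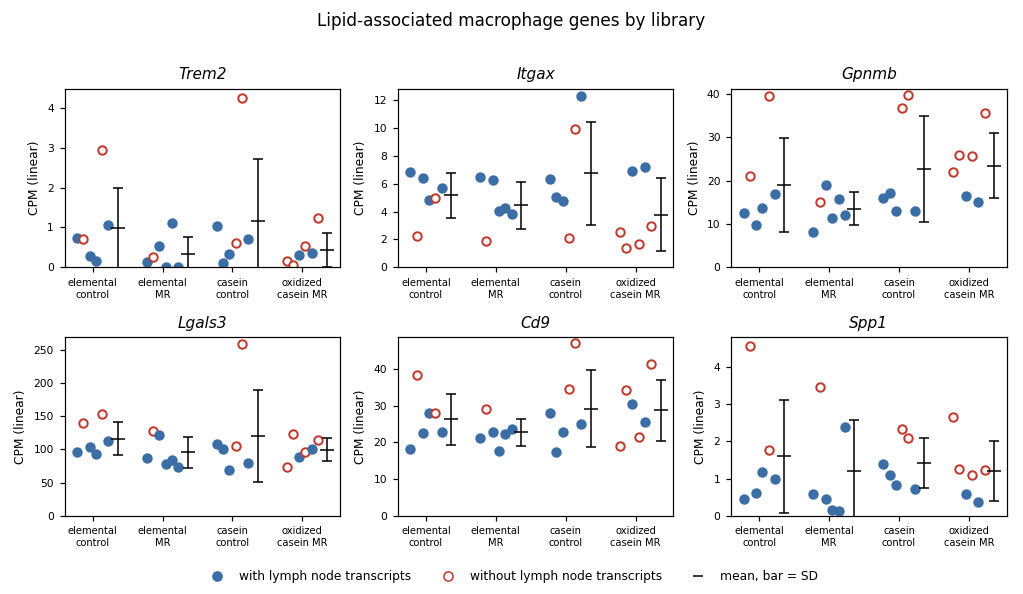
CPM of the 6 lipid-associated genes in each library by diet (linear y axes from 0), symbols as for the general and resident genes, with mean ± SD of 6 mice (bars that would pass below 0 end at the axis). Casein control mouse 5 is the highest point of Trem2 (4.26 CPM), Gpnmb, Lgals3 and Cd9.

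Casein control mouse 5 was the highest of all 24 libraries for 4 of the 6 lipid-associated genes, with 39.7 CPM of Gpnmb, 259 CPM of Lgals3 and 47.2 CPM of Cd9 beside its Trem2. It also had the highest Cd68 of all, 47.2 CPM. The leptin transcript Lep, which tracks adipocyte size, was at 2195 CPM in this mouse, and at 36.2 to 810 CPM in the other 23. Elemental control mouse 5, with the next highest Lep, was the highest library for 9 members, among them Adgre1, Csf1r, Mrc1, Cd163 and Folr2. Body fat of single mice is not used here, and the part of adiposity in these values was not tested.

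The levels of many of the 30 genes went with lymph node content. Mpeg1, Aif1, Laptm5, Ctss, Cx3cr1 and Timd4 were each higher in all 15 libraries with lymph node transcripts than in all 9 without, which is 6 of 30 against 6.15% of all genes, and 0 of 30 lay wholly lower, against 0.857%. By diet on elemental amino acids 0 of 30 members had MR mice wholly below the controls, where 0.25% of all genes did, and 0 of 30 on casein, where 0.422% did. The ratio of medians, with over without, was 12.0 for Timd4, 4.84 for Cx3cr1, 4.24 for Laptm5, 3.89 for Ctss and 3.81 for Mpeg1, and 12 members were over 1.5-fold higher. Another 7 members were over 1.5-fold higher in the libraries without, led by Spp1 at 3.39-fold, Cd163 at 2.58-fold, Gpnmb at 1.89-fold, Trem2 at 1.82-fold, Folr2 at 1.68-fold and Mrc1 at 1.56-fold. The adipocyte gene Adipoq was likewise higher in the libraries without, with medians of 4004 against 2195 CPM. The resident class was split by this: Timd4, Lyve1 and Siglec1 went with lymph node, and Mrc1, Cd163 and Folr2 against it.

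**Figure D4:**
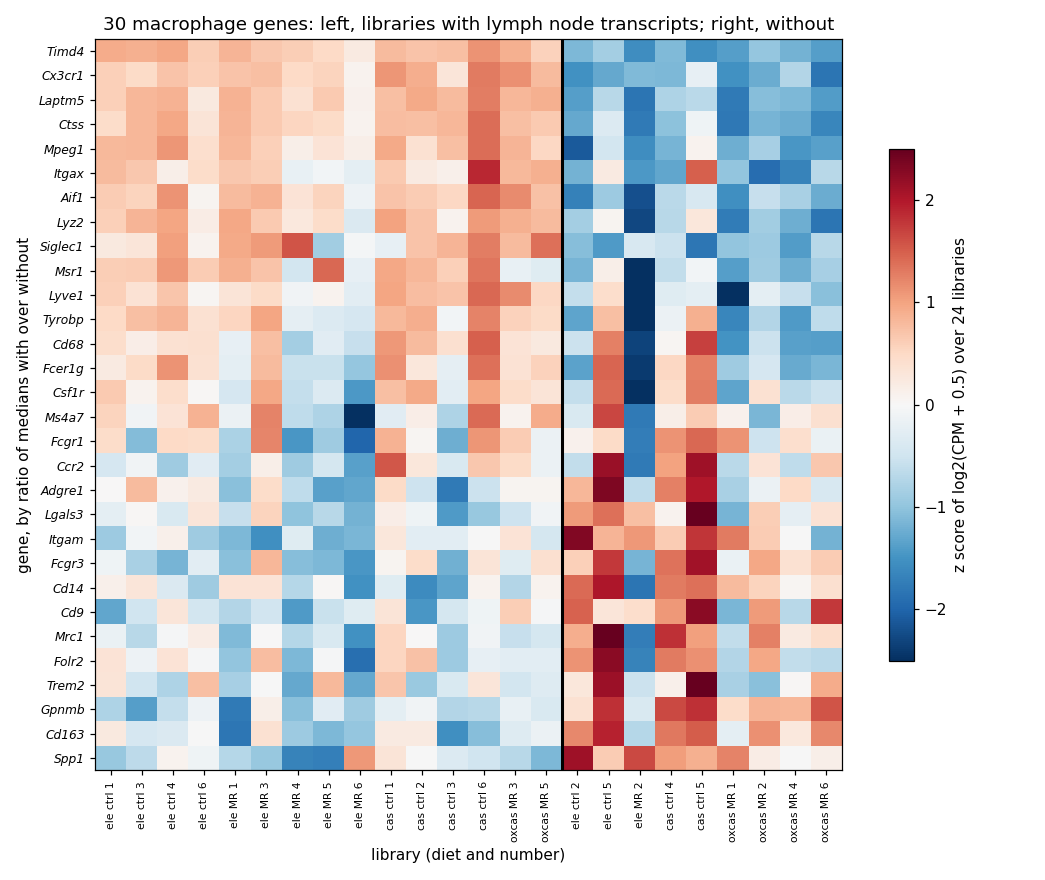
z score over 24 libraries of log2(CPM + 0.5) for the 30 genes (rows, ordered by their ratio of medians with over without lymph node transcripts), with the 15 libraries with lymph node transcripts left of the black line and the 9 without to its right; the colours saturate at the ends of the bar. The upper rows, from Timd4 to Mpeg1, are high on the left, and the lower rows, from Spp1 and Cd163 upward, are high mostly on the right.

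The order of the members' MR effects followed the same division, in opposite senses on the 2 protein sources. Across the 30 genes, the log2 ratio with over without lymph node transcripts had a Pearson r of 0.67 (Spearman rho 0.77) with the MR log2 fold change on elemental amino acids and of -0.60 (rho -0.65) on casein. Libraries with lymph node transcripts were 5 of 6 MR mice against 4 of 6 controls on elemental amino acids and 2 of 6 against 4 of 6 on casein. With lymph node presence in the model the correlations were 0.22 (rho 0.17) and 0.18 (rho 0.01). The ratio and the fold changes were taken from the same libraries, which are split unevenly between MR and control. An uneven split by itself ties these 2 values, and fitting that split as a term removes the tie. The correlations and their fall therefore test nothing about a cause. They describe genes that share the same libraries, and genes are not independent replicates.

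**Figure D5:**
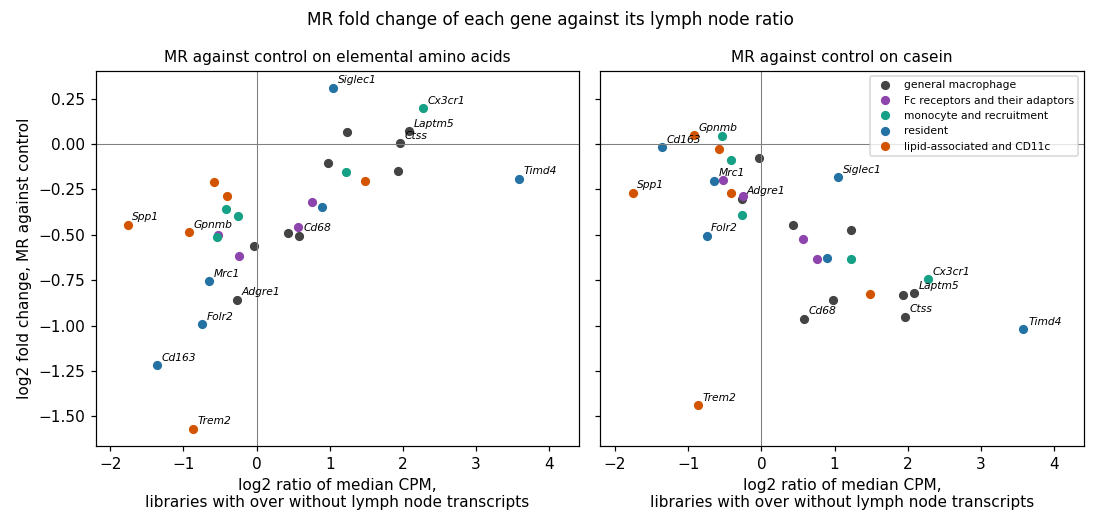
Each point is a gene, coloured by class: log2 ratio of its median CPM in 15 libraries with over 9 without lymph node transcripts (x axis) and its MR log2 fold change (y axis) on elemental amino acids (left) and on casein (right). The cloud rises to the right on elemental amino acids (r 0.67) and falls on casein (r -0.60), while Trem2 lies low in each.

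With lymph node presence as a term of the model, 28 of 30 members were lower on elemental amino acids (median -0.36), 29 on casein (median -0.37) and 29 in the average (median -0.43). The share of all genes lower in that model, whether past the threshold or not, is not given here. In the average 6 members passed as lower, against 5.82% of all genes in that model: Cd68 (-0.75, adjusted p = 0.0045), Fcer1g (-0.49, 0.0174), Ctss (-0.46, 0.0332), Adgre1 (-0.54, 0.0348), Mrc1 (-0.46, 0.0355) and Folr2 (-0.71, 0.0421). On casein 1 passed, Cd68, against 2.84% of all genes, and on elemental amino acids 0 passed, against 0.409%. With the B cell score as a continuous term instead, an alternative chosen after seeing the data, 5 passed in the average, against 6.03% of all genes called lower in that model. Fitted alone, the libraries with lymph node transcripts gave 0 members in the average, against 0.46% of all genes called lower. The libraries without held 1 elemental MR mouse, one rich in muscle transcripts, so only sizes are given for them. In the average these were -1.10 for Adgre1, -0.95 for Fcgr3 and -1.04 for Cd14. Whether a member passed in that fit is not read here, for Cd68 and Fcer1g as for the others.

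Within the 9 libraries without lymph node transcripts, 15 of 30 members were lower in all 4 oxidized casein MR mice than in both casein controls, against 15.9% of all genes. They were Adgre1, Cd68, Csf1r, Laptm5, Ctss, Msr1, Fcgr3, Fcer1g, Tyrobp, Lyz2, Cd14, Ccr2, Cd163, Folr2 and Gpnmb. A control among them was mouse 5, with the highest Lep. On elemental amino acids these libraries were 1 MR mouse and 2 controls, and 24 of 30 members were lower in the MR mouse, against 40% of all genes; that mouse and a control were the 2 rich in muscle transcripts. Among lymph node libraries 4 of 30 members, Cd68, Ctss, Msr1 and Spp1, were lower in both oxidized casein MR mice than in all 4 casein controls, against 9.91% of all genes, and 0 of 30 were on elemental amino acids, where 5 MR mice met 4 controls, against 1.3%.

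Resident and lipid-associated markers were also read relative to Adgre1, as differences of log2 CPM in each mouse. Mrc1 relative to Adgre1 differed between MR and control by 0.14 on elemental amino acids and by -0.03 on casein, and Cd163 by -0.31 and 0.32. Trem2 relative to Adgre1 differed by -0.38 and -0.65, and Itgax by 0.59 and -0.73. In 2-sided exact permutation tests of 6 against 6 mice, a family of 20 tests with these 8 differences and the levels of 6 genes, 0 passed after Benjamini-Hochberg adjustment. The smallest p, 0.00866 (adjusted 0.0866), belonged to Adgre1 on elemental amino acids (-0.82, lower than every control in 5 of 6 mice) and to Cd68 on casein (-0.99, in 4 of 6), where 0.00216 is the least such a test can give. The adjusted p of the 8 differences ran from 0.437 to 0.903.

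Other genes of macrophages, which are not members, were counted from lists. Of 21 further resident genes 20 could be tested, and all 20 were lower with elemental MR (median -0.76, 0 past the threshold). Of these, 15 had an unadjusted p under 0.05, against 5.08% of all genes lower at this level. On casein 19 of 20 were lower (median -0.32, 0 past the threshold), 6 of them at the unadjusted level, against 6.4% of all genes. In the average all 20 were lower with a median of -0.55, and 6 passed as lower, against 1.76% of all genes. Among the 6 were Maf (-0.39), a transcription factor of mature macrophages, and Gas6 (-0.72, adjusted p = 0.00306), the bridge by which dying cells are bound. The complement genes C1qa (-0.54) and C1qc (-0.57) and the lectin gene Cd209d (-0.79) were others. The part of cells other than macrophages in the values of this list was not tested. C1qa was at 74.8 to 130.4 CPM with a median of 84.6 in elemental controls and 41.6 to 91.4 CPM with a median of 56.9 with MR, and at 63.6 to 122 CPM with a median of 98.15 in casein controls and 51.3 to 82.7 CPM with a median of 69.3 with MR, so that the groups overlapped on each protein source. Its medians with and without lymph node transcripts were 78.45 and 79.0 CPM. In the average 1 of the 20 passed when only lymph node libraries were fitted, against 0.46% of all genes called lower there, and 4 when only the others were, against 0.986%.

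Of 18 lipid-handling and lysosomal genes, 11 were lower in the average with a median of -0.12. Plin2, which coats lipid droplets, rose by 0.87 ± 0.18 (SE, adjusted p = 0.00331), the fatty acid binding protein gene Fabp5 by 0.60 and the lysosomal lipase gene Lipa by 0.45. On casein Plin2 rose by 1.08 and Fabp5 by 0.77, and on elemental amino acids 0 of 18 passed. Adipocytes express Plin2, Fabp5 and Lipa as well, and their part was not tested. Mmp12, macrophage elastase, had the largest fold change of the list at -1.41 ± 0.54 (SE, adjusted p = 0.133). Its highest values were in controls, 13.1 CPM in casein control mouse 5 and 8.835 CPM in elemental control mouse 5. The remaining libraries lay at or below 3.547 CPM.

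Among macrophage ligands and chemokines 9 of 10 were tested, and all 9 were lower in the average (median -0.43). In the average, on elemental amino acids and on casein 0 passed. In the same order 3, 1 and 1 were lower at an unadjusted p under 0.05, against 8.74%, 5.08% and 6.4% of all genes. Csf1 was at -0.23 ± 0.11 (SE, adjusted p = 0.250), Il34 at -0.44 ± 0.18 (SE, adjusted p = 0.173) and the monocyte chemoattractant gene Ccl2 at -0.80 ± 0.42 (SE, adjusted p = 0.319). Of 14 monocyte and inflammatory genes 7 could be tested, with a median of -0.37 in the average, 0 passing and Tnf at -0.55. Among 13 phagocyte transcription factors and pan-leukocyte genes Cebpb rose by 0.75 in the average and 0 of the other 12 passed. The part of cells other than macrophages in the Cebpb value was not tested. The PU.1 gene Spi1 was at -0.11 on elemental amino acids and -0.65 on casein, and the leukocyte gene Ptprc (CD45) at 0.19 and -0.98.

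Markers of other cells were compared between the diets too. Hepatocyte and skeletal muscle markers had the largest list medians on elemental amino acids and between the controls. They were -1.61 for 4 hepatocyte markers with elemental MR and 0.26 with oxidized casein MR, and -1.04 and 0.98 for 5 muscle markers. Between casein and elemental controls these medians were -2.35 and -3.66, and 0 were past the threshold in each of these comparisons. Between the controls 4 of 4 and 5 of 5 were lower at an unadjusted p under 0.05, against 12.6% of all genes in either direction. The albumin gene Alb was at 5610 CPM in elemental control mouse 6 and at 48.7 to 865 CPM in the other 23. The mean log2 CPM of the muscle markers was 10.7 in elemental control mouse 2 and 9.57 in elemental MR mouse 2. In the remaining libraries it was 0.74 to 6.82. The libraries named for Alb and for muscle are all elemental control or elemental MR mice, so none is in the casein pair. In that pair the mean of the muscle markers was 1.84 to 5.72 in controls and 3.32 to 6.82 with MR. How far the medians of these 2 lists lean on single libraries was not tested. In the average 1 of 5 adipose progenitor markers, Cd34 (-0.64), 1 of 4 blood endothelial markers, Pecam1 (-0.26), and 1 of 4 mast cell markers, Cpa3 (-0.65), fell. There 0 of 6 adipocyte markers passed (median 0.04). Of all genes, 1.76% passed as lower in the average and 6.99% in either direction. Medians in the average were -0.26 for 11 T cell, -0.49 for 11 B cell, -0.21 for 6 dendritic cell, -0.37 for 4 tested neutrophil and -0.44 for 6 lymphatic endothelial markers, with 0 past the threshold. The part of these cells in the macrophage values was not tested.

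The diets of equal methionine level gave no member past the threshold. Between casein control and elemental control 22 members were higher and 8 lower with casein, with a median of 0.15, and 0 of 30 passed, against 0.659% of all genes. At an unadjusted p under 0.05 there were 0 members in that comparison, against 12.6% of all genes. Between oxidized casein MR and elemental MR 17 were higher and 13 lower, with a median of 0.06, 0 of 30 passed, against 0% of all genes, and 3 were higher at an unadjusted p under 0.05, against 3.85% of all genes. DESeq2 called 0 members in each.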

How the data were processed

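RNA of a small piece of IWAT from 24 mice, 6 a diet, was sequenced with QuantSeq 3′ mRNA-Seq libraries and 50 bp reads, per the labels' protocols. The authors deposited 2 tables: raw read counts per gene, and a signal table of counts divided by a size factor per library. Raw count over size factor gave the deposited normalized signal to a largest relative difference of 5.3e-15. Per the submitters' processing notes the builds were GRCm38 and mm10, and R 3.4.3 and DESeq2 1.18.1 were used; which aligner and counter were used, and with which strand option, is not given in the sources used here. Over all libraries the smallest gene total was 72 reads, and 0 per-sample columns were unused. The file gave symbols for 14103 genes, GENCODE M21 for 2668 more, and 50 kept their identifier.

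The tests on the counts ran under R 4.3.3, with edgeR 4.0.16 (filterByExpr, TMM, robust quasi-likelihood F test, 1 mean per diet, all 24 libraries in 1 fit) for 6 comparisons, with Benjamini-Hochberg adjustment over 15176 genes and a threshold of 0.05. SEs were computed from the log2 fold change and F. Exact permutation tests used log2 CPM with a prior count of 2. The scripts were tested on simulated data. Alternatives were relative log expression size factors, no filter on low counts, DESeq2 1.42.0, limma 3.58.1 voom, only the groups compared, lymph node presence as a term, only libraries with or only those without lymph node transcripts, removal of libraries with Acta1 above 1000 CPM, and each library left out in turn. 3′ reads give no length-scaled level, so levels are compared within a gene only. Reads carry no molecular identifiers, and limits from 0 reads cover counting error only.

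Values by library were given for members past the threshold in any comparison, for the 6 genes of the permutation tests, and for the member of each class with the largest absolute log2 fold change in each MR comparison. Further macrophage genes were named where past the threshold or among the 3 largest fold changes of their list; Csf1, Il34, Spi1 and Ptprc were named for their roles and Tnf and C1qa described further, with values already seen. Some genes past the threshold in these lists are not reported here. Members and lists were chosen with earlier results of these data known. Mice are numbered in accession order within a diet, and each is a separate animal by the titles' animal numbers.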

Additional observations from a re-analysis of the deposited data

Results flagged for a closer look

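Among 120 tests of single libraries, each of a gene within a diet of 6 mice, 16 found a library far from the other 5 on log2 CPM (Dixon's test at the 95% level, which chance alone meets in about 1 in 20). Elemental MR mouse 2 gave 8 of the 16. It was the only elemental MR library without lymph node transcripts, and it was rich in muscle transcripts. It lay low for Timd4 (1.47 CPM, next 16.4), Laptm5 (27.7, next 120), Ctss (24.8, next 89.0), Mpeg1 (6.14, next 19.5), Aif1 (6.48, next 20.6), Cx3cr1 (3.03, next 8.02), Lyve1 (14.9, next 58.3) and Tyrobp (8.91, next 23.3).

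Elemental control mouse 2, the other library rich in muscle transcripts, lay low for Tyrobp (15.99 CPM, next 32.4) and Itgax (2.23, next 4.83). Elemental control mouse 5 lay high for Adgre1 (21.1 CPM, next 11.8) and Ccr2 (45.5, next 23.6). Casein control mouse 5 lay high for Lgals3 (259 CPM, next 108), and oxidized casein MR mouse 2 for Folr2 (27.8, next 15.4). Elemental control mouse 3 lay low for Fcgr1 (1.24 CPM, next 2.23) and elemental MR mouse 3 high for Fcgr3 (20.3, next 9.86).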

How the results depend on the processing

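On casein the 1 member called became 0 with only the groups compared, 0 with only libraries with and 0 with only libraries without lymph node transcripts, and 2 without the libraries rich in Acta1. In the average the 2 members called became 1 with limma voom, 6 with lymph node presence as a term, 0 with only libraries with lymph node transcripts, 3 with only those without (Adgre1, Fcgr3 and Cd14, neither of the 2), 3 with DESeq2 (Folr2 added) and 5 with the B cell score as a term. Leaving out each library in turn gave 0 to 1 on casein, 1 to 6 in the average (6 without elemental MR mouse 3, 4 without casein control mouse 3) and 0 to 1 of the 20 permutation tests (Adgre1 on elemental amino acids, -0.95, adjusted p = 0.0432, without elemental MR mouse 3). No paired analysis was possible because the labels carry no replicate numbers shared between diets. Of the 30 members, the sign turned for 10 on casein, 4 on elemental amino acids and 3 in the average with only lymph node libraries, for 4, 4 and 0 with only the others, and for 3, 3 and 0 with either lymph node term. With voom it turned for 2, 3 and 0, and with relative log expression, no filter or DESeq2 for Ctss alone, on elemental amino acids. Among the 13 genes given by library these were: Adgre1 on casein 0.29 with only lymph node libraries; Cd14 on casein -0.0935 with the lymph node term, -0.36 without lymph node libraries and -0.0789 with the B cell score, and 0.0798 in the average with only lymph node libraries; Cx3cr1 with only lymph node libraries, -0.0659 on elemental amino acids and 0.00886 on casein; Cd163 on casein 0.18 with voom and 0.11 with only lymph node libraries; Timd4 0.028 on elemental amino acids with voom and 0.25 on casein without lymph node libraries. With 1 library left out, values crossed 0 for Cd163 (-0.21 to 0.27) and Cd14 (-0.0784 to 0.202) on casein, Timd4 (-0.456 to 0.0502) and Cx3cr1 (-0.0294 to 0.383) on elemental amino acids, and, on log2 CPM on casein, Adgre1 (-0.363 to 0.0571) and Mrc1 relative to Adgre1 (-0.171 to 0.054). The causes were not tested. The totals over all genes that follow are in either direction, whereas every member called was lower. On casein 644 genes passed without Acta1-rich libraries and 558 with voom. In the average 1042 passed with voom, 1385 with DESeq2 and 892 without Acta1-rich libraries. Totals with 1 library left out are not given here. Over all genes the 37 calls on elemental amino acids became 218 with DESeq2, 23 with only the groups compared, 166 with the lymph node term, 5 and 0 with only libraries with and without lymph node transcripts, 8 without Acta1-rich libraries and 197 with the B cell score. The 579 calls on casein became 918 with DESeq2, 339 with only the groups compared, 1120 with the lymph node term, 5 with and 172 without lymph node libraries and 1034 with the B cell score; the 1061 in the average became 1941 with the lymph node term, 344 with and 320 without lymph node libraries and 1989 with the B cell score. Trem2 had 231 reads over 24 libraries and an SE of 0.62 in the average, and Timd4 6148 reads and an SE of 0.63; what part of these errors depth makes was not tested.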
